A study of Mus musculus with 4 samples.

Results

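Hepcidin, its BMP signal and the genes that carry, take up, store and export iron were followed in whole liver RNA from mice given alcohol. The members were fixed by name, and all 10 were present among the 22103 entries of the deposited table: the hepcidin genes *Hamp* and *Hamp2*, the BMP ligand *Bmp6*, the BMP/SMAD target genes *Id1* and *Smad7*, the transferrin receptor *Tfrc*, transferrin itself (*Trf*), the ferritin subunits *Fth1* and *Ftl1*, and the iron exporter ferroportin (*Slc40a1*). All 10 passed the filter on low values described with the first test. The livers came from 2 WT mice and from 2 Brg1 LKO littermates, in which *Smarca4*, the gene of the chromatin remodeler Brg1, is removed by crossing *Smarca4* f/f mice to an *Alb*-Cre strain. The *Alb* promoter drives Cre in hepatocytes, so the other cells of the liver keep the gene and their RNA is part of every sample. All 4 mice were male, about 8 weeks old when the procedure began, and had 15 days of alcohol by their labels in the NIAAA model, a chronic ethanol liquid diet that ends with a single ethanol gavage. No alcohol-free liver was analysed here, so each comparison is between genotypes under alcohol.

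Hepcidin is a peptide hormone that hepatocytes secrete, and it lowers the amount of iron entering the blood by binding ferroportin and sending it to be degraded. Liver endothelial cells release BMP6 and BMP2 when iron is plentiful, hepatocytes answer through SMAD proteins, and the hepcidin gene is transcribed together with *Id1*, *Smad7*, *Smad6* and *Atoh8*. Inflammation raises hepcidin by a separate route, in which IL-6 acts through STAT3. Inside cells, iron regulatory proteins bind a hairpin called the iron-responsive element when iron is scarce; at the start of a transcript the binding blocks translation (ferritin, ferroportin), and at its end the binding protects the RNA from decay (*Tfrc*). Alcohol is known as a condition in which hepcidin falls and liver iron builds up.

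The promoters of both hepcidin genes are shown because these 2 genes gave the widest spread of values in the set. The mouse has *Hamp* on chromosome 7 of GRCm38 from 30942368 to 30944032 and *Hamp2* from 30922372 to 30924681, both on the minus strand and 17686 bases apart. The stretches below run 5′ to 3′ from base −250 to base −11 before the annotated start, from RefSeq windows on GRCm38.p6. They span chr7:30944040-30944279 for *Hamp* and chr7:30924192-30924431 for *Hamp2*, on the minus strand; the latter also lies within an intron of a longer annotated isoform of *Hamp2*. The first run of capitals marks GGCGCC, the core of a BMP-responsive element, or the letters aligned to it, and the second marks a STAT palindrome, TTCNNNGAA.
Hamp: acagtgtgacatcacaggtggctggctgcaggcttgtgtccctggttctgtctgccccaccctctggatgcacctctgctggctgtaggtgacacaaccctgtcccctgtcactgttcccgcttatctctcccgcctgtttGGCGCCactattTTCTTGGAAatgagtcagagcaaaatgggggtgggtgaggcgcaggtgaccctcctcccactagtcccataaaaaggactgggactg
Hamp2: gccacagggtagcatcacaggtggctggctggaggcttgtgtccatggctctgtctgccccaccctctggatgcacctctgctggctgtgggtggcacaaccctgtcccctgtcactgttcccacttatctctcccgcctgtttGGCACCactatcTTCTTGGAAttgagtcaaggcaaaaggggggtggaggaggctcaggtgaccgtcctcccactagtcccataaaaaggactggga
The 2 stretches were 89.7% identical. In *Hamp* the BMP core began at base −109 and the STAT palindrome at base −97. In *Hamp2* the palindrome was retained, at base −94, while the aligned BMP core differed by G4A, counted from the 5′ end of the core in *Hamp*. Both motifs are palindromes, so each was found on both strands at once, and they did not overlap. Over 32851 promoter windows of 300 bases, 11.9% held GGCGCC and 8.3% held TTCNNNGAA. Windows were found for 6 of the 10 members (*Hamp*, *Hamp2*, *Bmp6*, *Tfrc*, *Fth1* and *Ftl1*), and among these GGCGCC was also present in *Tfrc*, at base −89. These matches describe letters only.

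The iron-responsive elements of 4 members are shown because *Tfrc* and the ferritin genes carry them in opposite parts of the transcript. Each was found in the UTR sequences of GENCODE M21 (GRCm38) as a C, 5 bases, the loop CAGTGN with a last base other than G, and 5 bases pairing with the first 5. The loop is in capitals. Those of *Fth1* (chr19:9982732-9982760, plus strand), *Ftl1* (chr7:45459779-45459807, minus strand) and *Slc40a1* (chr1:45925465-45925493, minus strand) lie in the 5′ UTR. The 4 found in *Tfrc* lie in the 3′ UTR on the plus strand (chr16:32631219-32631247, chr16:32631598-32631626, chr16:32631663-32631691 and chr16:32631710-32631738). An element that departs from this pattern would be missed.
Fth1: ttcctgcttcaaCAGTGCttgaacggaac
Ftl1: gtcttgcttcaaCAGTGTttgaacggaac
Slc40a1: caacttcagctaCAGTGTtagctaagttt
Tfrc element 1: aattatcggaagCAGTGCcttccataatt
Tfrc element 2: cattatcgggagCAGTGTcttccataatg
Tfrc element 3: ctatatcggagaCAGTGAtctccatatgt
Tfrc element 4: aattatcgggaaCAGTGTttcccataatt
By the same search an element was found in the 5′ UTR of 21 of 20890 genes (0.101%) and in the 3′ UTR of 98 of 21004 genes (0.467%).

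Levels were deposited as FPKM, reads scaled to transcript length and to the reads of the whole library, so they can be compared between genes. The totals recovered from the low values were 72599106 to 80935546 reads per liver, and the reads given below for single genes are estimates from them. *Smarca4*, the deleted gene, had 1.79 and 1.95 FPKM in the WT livers and 0.608 and 0.579 FPKM in the Brg1 LKO livers. The labels of genotype and the level of the deleted gene therefore matched in 4 of 4 livers. Hepatocyte markers were high in every liver, with *Alb* at 10710 to 12490 FPKM, and the 11 markers of that list summed to 18690 to 22050 FPKM.

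The 10 genes spanned a range from 0.0718 FPKM for *Bmp6* in WT 1 to 8485 FPKM for *Trf* in LKO 2. In every liver *Trf* was highest and *Ftl1* was next, and the values of these 2 genes did not overlap. *Hamp* and *Fth1* followed, but their order turned between livers: *Hamp* was the higher of the 2 in WT 1 and LKO 1 and the lower in WT 2 and LKO 2. *Hamp2* lay below *Fth1* in each liver, although its value in LKO 1 was above that of *Fth1* in WT 1. *Slc40a1* came next, above every value of *Id1* and *Tfrc*, and these last 2 overlapped. *Smad7* lay below both, and *Bmp6* had the lowest level in each liver.

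**Figure D1:**
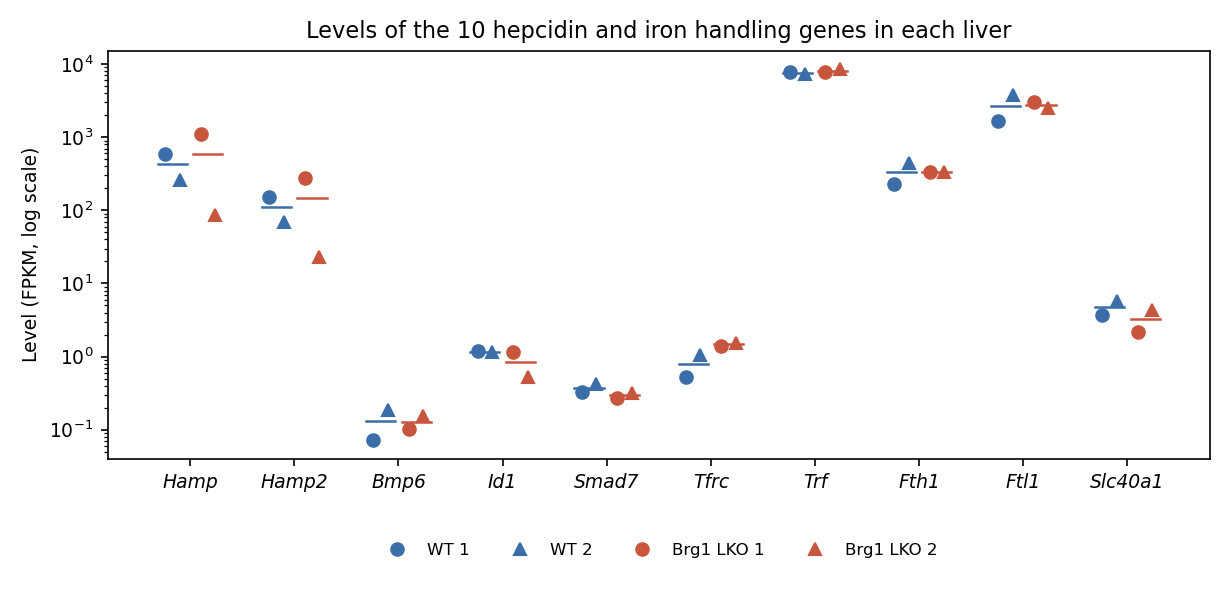
The level of each of the 10 genes in FPKM, on a log axis, with circles for replicate 1 and triangles for replicate 2 of WT (blue) and Brg1 LKO (red) and a line at each group mean. The 2 LKO livers lie farthest apart for *Hamp*, at 1092 and 86.9 FPKM, with both WT livers between them, while *Trf* stays between 7253 and 8485 FPKM in all 4.

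Genotype was compared with limma on log2(FPKM + 0.1) in 12346 genes, those that averaged 0.1 FPKM or more over the livers. On this scale a log2 fold change is LKO against WT and understates the change of low genes. A gene was called where its unadjusted p was under 0.05 and its change over 2-fold. By that rule 121 genes, or 0.98% of those tested, were called, 54 higher and 67 lower in the Brg1 LKO livers, and 0 of the 10 members were. An unadjusted p under 0.05 was reached by 1 member, *Tfrc*, and by 2.0% of all genes tested. Both LKO values lay outside both WT values in 2 members, *Smad7* and *Tfrc*, and in 20.7% of all genes. With Benjamini-Hochberg adjustment over all genes, 0 genes (0.0%) had an adjusted p under 0.05 in limma, against 247 with an unadjusted p under 0.05, and the adjusted p of every member was 1. The median log2 fold change was −0.12 over the 10 members and −0.02 over all genes tested. With 2 livers against 2, exact permutation of the livers (two-sided) can give no p below 0.333, so calls below rest on a spread that limma shares across genes, and the 95% intervals and standard errors (SE) come from the same fit.

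*Hamp* encodes hepcidin itself, the hormone that binds ferroportin. Its level was 596 FPKM in WT 1, 258 FPKM in WT 2, 1092 FPKM in LKO 1 and 86.9 FPKM in LKO 2, from 19767, 8452, 35011 and 2588 reads. The highest and the lowest value were both in Brg1 LKO livers, with the WT livers between them, so that the groups overlapped. The group means were 427 ± 239 FPKM (SD, n = 2) in WT and 590 ± 711 FPKM (SD, n = 2) in Brg1 LKO. The arithmetic mean was thus higher in the LKO group, while the log2 fold change was −0.35 (95% interval −2.05 to 1.36, limma adjusted p = 1). The interval spans changes of more than 2-fold in both directions, so a difference between genotypes was not detectable with these livers.

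The gap between the 2 Brg1 LKO livers was itself large. *Hamp* was 12.6-fold higher in LKO 1 than in LKO 2, a difference of 3.65 on the log2 scale. Among the 7733 genes that averaged 1 FPKM or more, only 7, *Hamp* included, had as large a gap between these livers (0.0905%). Between the WT livers *Hamp* differed by 2.31-fold, a gap that 123 of the 7733 genes equalled or passed. The direction of the genotype difference therefore depended on which liver was counted. Without LKO 1 the log2 fold change of *Hamp* was −2.17, and without LKO 2 it was 1.48. Without WT 1 it was 0.26 and without WT 2 it was −0.95. Where a group is left with 1 liver, that liver is assumed to vary like the other group. For *Hamp* the log2 gap was 1.21 between the WT livers and 3.65 between the LKO livers, so only effect sizes are given for it here.

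*Hamp2*, the neighbouring copy of *Hamp*, had the same order of livers. Its level was 150 FPKM in WT 1, 68.9 FPKM in WT 2, 273 FPKM in LKO 1 and 23.3 FPKM in LKO 2, from 5101, 2312, 8974 and 711 reads. The log2 fold change was −0.35 (95% interval −2.01 to 1.32), and it was −2.12 without LKO 1 and 1.43 without LKO 2. As a share of *Hamp*, *Hamp2* was nearly constant, at 25.2%, 26.7%, 25.0% and 26.8% in WT 1, WT 2, LKO 1 and LKO 2. The annotated transcripts of the 2 genes, 410 and 420 bases long, are 92.4% identical and share a longest run of 87 bases. Only a read that falls wholly within such a run would fit both copies equally. The read length that the paper states is longer than this run, and how reads were divided between the copies is not given in the sources used here. The share of *Hamp2* is uncertain for that reason.

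*Bmp6*, the ligand that endothelial cells release toward hepatocytes, was near the lower limit of the measurement. It had 0.0718 FPKM in WT 1, 0.187 FPKM in WT 2, 0.101 FPKM in LKO 1 and 0.154 FPKM in LKO 2, from 21, 54, 28 and 40 reads. The LKO values lay between the WT values, and the log2 fold change was 0.03 (95% interval −0.82 to 0.87). The sinusoidal endothelial markers, which stand for the cells that make *Bmp6*, summed to 40.0, 40.5, 30.3 and 41.2 FPKM in WT 1, WT 2, LKO 1 and LKO 2. Of these 11 markers 0 were called, 0 were at 0 in all livers, and the median log2 fold change was −0.23, which was 0.12 without LKO 1 and −0.75 without LKO 2. In bulk tissue, fewer cells of a type and less RNA per cell cannot be told apart.

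*Id1* and *Smad7* are both switched on by BMP/SMAD signaling, and *Smad7* feeds back to restrain it. *Id1* had 1.18 FPKM in WT 1, 1.14 FPKM in WT 2, 1.15 FPKM in LKO 1 and 0.522 FPKM in LKO 2, from 111, 106, 104 and 44 reads. Only LKO 2 stood below the others, and LKO 1 lay between the WT livers. The log2 fold change of −0.52 (95% interval −1.35 to 0.31) was −1.02 without LKO 1 and −0.018 without LKO 2. *Smad7* had 0.332 FPKM in WT 1, 0.418 FPKM in WT 2, 0.269 FPKM in LKO 1 and 0.319 FPKM in LKO 2. Both LKO livers were below both WT livers, by a narrow margin, and the log2 fold change was −0.27 (95% interval −1.03 to 0.49). LKO 2, the liver with the lowest *Hamp* and *Id1*, did not have the lowest *Smad7*.

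*Tfrc*, the receptor through which cells take up transferrin-bound iron, was the member with the lowest p. It had 0.528 FPKM in WT 1, 1.06 FPKM in WT 2, 1.38 FPKM in LKO 1 and 1.55 FPKM in LKO 2, from 209, 415, 527 and 549 reads. Both LKO livers were above both WT livers, and the group means were 0.795 ± 0.378 and 1.46 ± 0.119 FPKM (SD, n = 2 each). The log2 fold change was 0.87 (SE 0.38, 95% interval 0.060 to 1.68, limma adjusted p = 1; exact permutation p = 0.333), short of the 2-fold change the call required. It stayed above 0 when any liver was left out, from 0.43 without WT 1, where its unadjusted p was no longer under 0.05, to 1.31 without WT 2. *Tfrc* is also a gene of red cell precursors, and haemoglobin RNA was highest in LKO 1, with *Hbb-bs* at 7.27, 13.8, 73.5 and 9.86 FPKM in WT 1, WT 2, LKO 1 and LKO 2. Without LKO 1 the log2 fold change of *Tfrc* was 0.95; the part of red cells in its level was not tested.

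*Trf*, the blood protein that carries iron and that hepatocytes secrete, had the steadiest level of the 10 genes. It had 7878 FPKM in WT 1, 7253 FPKM in WT 2, 7720 FPKM in LKO 1 and 8485 FPKM in LKO 2. The highest liver was 1.17-fold above the lowest, and the log2 fold change was 0.10 (95% interval −0.51 to 0.71). Expressed as reads, *Trf* took 1490115 to 1639256 per liver.

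The ferritin subunits build the shell in which cells keep iron, *Fth1* coding for the heavy chain and *Ftl1* for the light chain. *Fth1* had 229 FPKM in WT 1, 440 FPKM in WT 2, 330 FPKM in LKO 1 and 334 FPKM in LKO 2. *Ftl1* had 1672 FPKM in WT 1, 3751 FPKM in WT 2, 3017 FPKM in LKO 1 and 2475 FPKM in LKO 2. For both genes the WT livers held the lowest and the highest value, with both LKO livers between them. The log2 fold changes were 0.06 for *Fth1* (95% interval −0.70 to 0.83) and 0.13 for *Ftl1* (95% interval −0.67 to 0.92). Quantile normalization turned them to −0.16 and −0.11. *Fth1* was 10.9% to 13.7% of *Ftl1* in every liver. Processed ferritin copies elsewhere in the genome can share reads with both genes, and how these were counted is not given in the sources used here.

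*Slc40a1* encodes ferroportin, the only known exporter of iron from cells and the target of hepcidin. It had 3.68 FPKM in WT 1, 5.69 FPKM in WT 2, 2.18 FPKM in LKO 1 and 4.39 FPKM in LKO 2, from 1170, 1786, 669 and 1252 reads. LKO 1 had the lowest value, and LKO 2 lay between the WT livers. The log2 fold change was −0.55 (95% interval −1.40 to 0.30), and it was −0.059 without LKO 1 and −1.04 without LKO 2. The table lists the gene under a transcript of 3928 bases that GENCODE M21 annotates as a retained intron and not as coding, so this level may not be that of the coding RNA. Kupffer cells, the macrophages that recycle iron from red cells, are rich in ferroportin. Of the 11 Kupffer markers, 11 had a higher mean in the Brg1 LKO group and 3 were called (*Vsig4*, *Cd5l* and *Cd68*), beside 0.98% of all genes tested. Both LKO values lay outside both WT values in 9 of the 11, beside 20.7% of all genes. *Timd4* was not among these 9, with 0.353 FPKM in LKO 1, below both WT livers. The median log2 fold change of the list, 0.84, was 0.25 without LKO 2. *Vsig4* had 2.33 FPKM in WT 1, 2.69 FPKM in WT 2, 2.79 FPKM in LKO 1 and 9.32 FPKM in LKO 2. They summed to 48.8, 49.9, 63.2 and 139 FPKM in WT 1, WT 2, LKO 1 and LKO 2, and 0 of them were at 0 in all livers. *Slc40a1* was thus not highest in the liver with the most Kupffer marker RNA, and the part of these cells in its level was not tested.

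**Figure D2:**
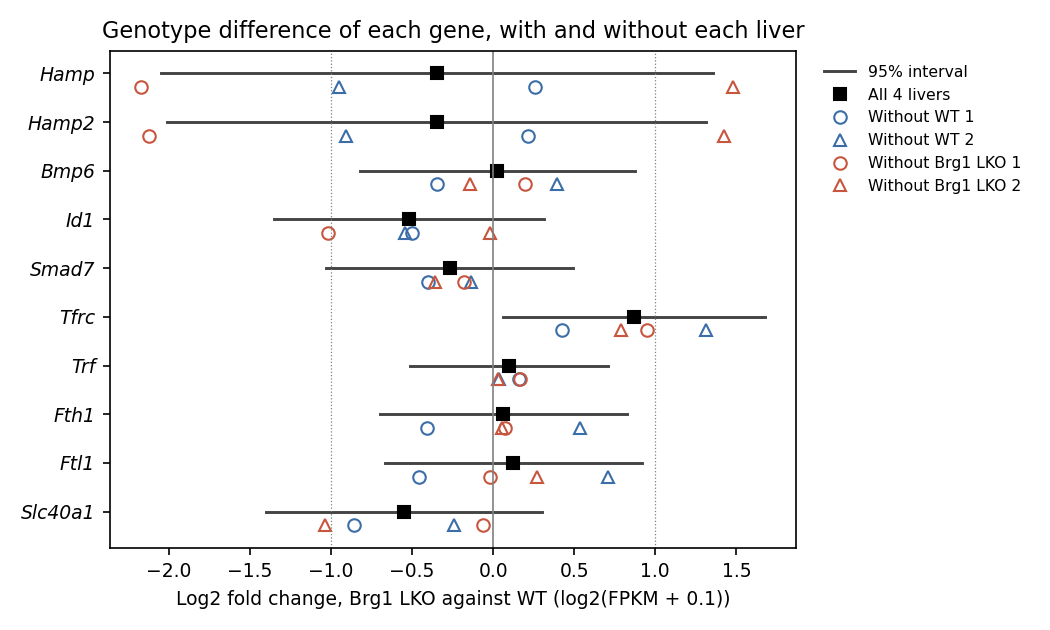
The log2 fold change of each gene, Brg1 LKO against WT, on the log2(FPKM + 0.1) scale, as a square with its 95% interval over all 4 livers and as open symbols with 1 liver left out; dotted lines mark a 2-fold change. *Hamp* and *Hamp2* run from −2.17 and −2.12 without LKO 1 to 1.48 and 1.43 without LKO 2, while *Tfrc* stays to the right of 0 throughout.

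Around the members, 23 genes of hepcidin sensing were tested, from BMP ligands and their receptors to SMADs and other targets. Of these 0 rose and 2 fell, where 0.98% of all genes tested were called. Both LKO values lay outside both WT values in 8 of the 23, beside 20.7% of all genes. In the list 9 genes had a positive and 14 a negative log2 fold change. Their median was −0.08, which was 0.084 without WT 2 and −0.27 without WT 1. *Bmp7*, a ligand of the same family as *Bmp6*, had 0.158 FPKM in WT 1, 0.266 FPKM in WT 2, 0.0279 FPKM in LKO 1 and 0.0563 FPKM in LKO 2. It fell, with a log2 fold change of −1.12 (SE 0.38, limma adjusted p = 1), although these values rest on 47, 78, 8 and 15 reads. *Smad9*, a receptor-activated SMAD of the BMP branch, had 0.246 FPKM in WT 1, 0.354 FPKM in WT 2, 0.129 FPKM in LKO 1 and 0.0539 FPKM in LKO 2. It fell by 1.08 on the log2 scale (SE 0.38, limma adjusted p = 1). With a pseudocount of 1 the log2 fold changes were −0.22 for *Bmp7* and −0.25 for *Smad9*, under 2-fold. Leaving out 1 liver also ended these calls: *Bmp7* was −0.98 without LKO 1 and below the filter without WT 2, and *Smad9* was −0.79 without LKO 2 and −0.88 without WT 2. With quantile normalization *Smad9* was −0.99, again under 2-fold.

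*Atoh8*, a transcription factor gene that follows BMP signaling in hepatocytes, had 2.21 FPKM in WT 1, 3.53 FPKM in WT 2, 1.83 FPKM in LKO 1 and 1.29 FPKM in LKO 2. Both LKO livers were below both WT livers, and the log2 fold change of −0.82 (SE 0.37), with an unadjusted p under 0.05, did not reach 2-fold. It was −1.15 without WT 1 and −1.06 without LKO 1, both over 2-fold, and −0.50 without WT 2 and −0.59 without LKO 2. With no filter, with either rescaling and with the replicate block, the p of *Atoh8* was over 0.05. *Smad6*, an inhibitory SMAD, had 1.23 and 1.13 FPKM in WT and 0.775 and 0.802 FPKM in Brg1 LKO, again without overlap (log2 fold change −0.52, 95% interval across 0). *Bmp2*, the other endothelial ligand, had 0.966 FPKM in WT 1, 1.28 FPKM in WT 2, 0.403 FPKM in LKO 1 and 1.29 FPKM in LKO 2. LKO 1, the liver with the most *Hamp*, thus had the least *Bmp2*. The summed sinusoidal endothelial markers were also lowest in LKO 1, at 40.0, 40.5, 30.3 and 41.2 FPKM in WT 1, WT 2, LKO 1 and LKO 2. The part of these cells in the level of *Bmp2* was not tested. The most abundant genes of the list were *Id2*, at 30.7 to 78.4 FPKM, and *Tmprss6*, a protease that holds hepcidin down, at 33.8 to 49.9 FPKM, and both overlapped between genotypes.

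Of 13 tested genes of iron uptake, reduction, oxidation and transfer, out of 15 listed, 1 rose and 0 fell. Of all genes tested 0.98% were called. *Steap4*, which reduces iron at the membrane, had 43.9 FPKM in WT 1, 15.95 FPKM in WT 2, 107 FPKM in LKO 1 and 41.9 FPKM in LKO 2. Its log2 fold change was 1.33 (SE 0.49, limma adjusted p = 1), but LKO 2 lay below WT 1. The call was lost without WT 2 (log2 fold change 0.61) and without LKO 1 (0.66). It was also lost, at log2 fold changes of 1.37, 1.29 and 1.33, with median-ratio rescaling, with quantile normalization and with no filter. *Slc39a14*, the ZIP14 transporter for iron that is not bound to transferrin, had 30.1 FPKM in WT 1, 18.5 FPKM in WT 2, 55.7 FPKM in LKO 1 and 37.4 FPKM in LKO 2. Both LKO livers were above both WT livers, with a log2 fold change of 0.95 (SE 0.36) that had an unadjusted p under 0.05 and stayed just under 2-fold. It was 1.30 without WT 1 and 1.23 without LKO 2, both over 2-fold, and 0.60 without WT 2 and 0.66 without LKO 1. With either rescaling the p of *Slc39a14* was over 0.05. The table lists *Slc39a14* under a retained-intron transcript and *Lcn2* under a processed transcript, neither of them annotated as coding, so these levels may not be those of the coding RNA. *Lcn2*, lipocalin 2, which binds iron-loaded siderophores, was the most abundant gene of the list and varied from 116 FPKM in WT 2 to 1175 FPKM in LKO 1. *Cp*, the ferroxidase ceruloplasmin, stayed between 45.3 and 65.3 FPKM.

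Among the iron regulatory proteins, ferritin handling genes and iron chaperones, 10 genes were tested out of 11 listed. Of these 0 rose and 0 fell, and the highest log2 fold change was 0.45, for *Ireb2*, which encodes one of the iron regulatory proteins. *Ireb2* had 2.26 and 1.91 FPKM in WT and 3.33 and 2.47 FPKM in Brg1 LKO, without overlap (95% interval −0.29 to 1.18). *Pcbp1* and *Pcbp2*, which deliver iron to ferritin, were the most abundant of the list, at 31.2 to 49.3 and 9.86 to 15.8 FPKM, and both overlapped between genotypes.

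The IL-6/STAT3 acute-phase genes, set beside *Hamp* because the same cytokine drives both, included genes that varied widely within each genotype. Of 17 tested genes out of 19 listed, 0 rose and 0 fell. *Saa1*, serum amyloid A, had 3111 FPKM in WT 1, 241 FPKM in WT 2, 3030 FPKM in LKO 1 and 733 FPKM in LKO 2, and *Saa2* had 1826, 95.8, 2002 and 341 FPKM in the same livers. *Saa1* and *Saa2* shared with *Hamp* their 2 higher livers, WT 1 and LKO 1. In all, 7 of the 17 tested genes did so, most of them of the *Saa* and *Orm* families. The share of all tested genes with the same 2 higher livers was not counted. *Saa1* and *Saa2* did not share the lowest liver of *Hamp*, which was LKO 2, and were lowest in WT 2. In other genes of the list the order of the 2 LKO livers was reversed. *Apcs*, the serum amyloid P component, had 387 FPKM in WT 1, 169 FPKM in WT 2, 116 FPKM in LKO 1 and 590 FPKM in LKO 2. *Crp*, C-reactive protein, was also lowest in LKO 1 (17.1 FPKM) and highest in LKO 2 (64.6 FPKM). *Fgb*, the fibrinogen beta chain, stayed between 1991 and 3611 FPKM.

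The 5 genes whose pattern over the 4 livers was most like that of *Hamp* were ranked by Euclidean distance between log2(FPKM + 0.1) values centred on their own mean. Of the 7732 other genes that averaged 1 FPKM or more, *Hamp2* was nearest, at a distance of 0.0956. *Fam134b*, a receptor for breakdown of the endoplasmic reticulum, came next at 0.730, with 9.37 FPKM in WT 1, 5.23 FPKM in WT 2, 19.5 FPKM in LKO 1 and 2.61 FPKM in LKO 2. *Fst*, follistatin, a secreted protein that binds activins and some BMPs, followed at 0.838, with 2.34, 1.35, 2.80 and 0.348 FPKM in the same livers. *Lpin1*, a lipid phosphatase, stood at 0.896, with 20.98, 21.6, 67.3 and 4.81 FPKM. *Ciart*, a repressor in the circadian clock, stood at 0.996, with 1.59, 1.63, 5.20 and 0.469 FPKM. In all 5 genes LKO 1 was highest and LKO 2 lowest, an order that follows from choosing them by likeness to *Hamp*. With 4 livers this ranking is a description.

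**Figure D3:**
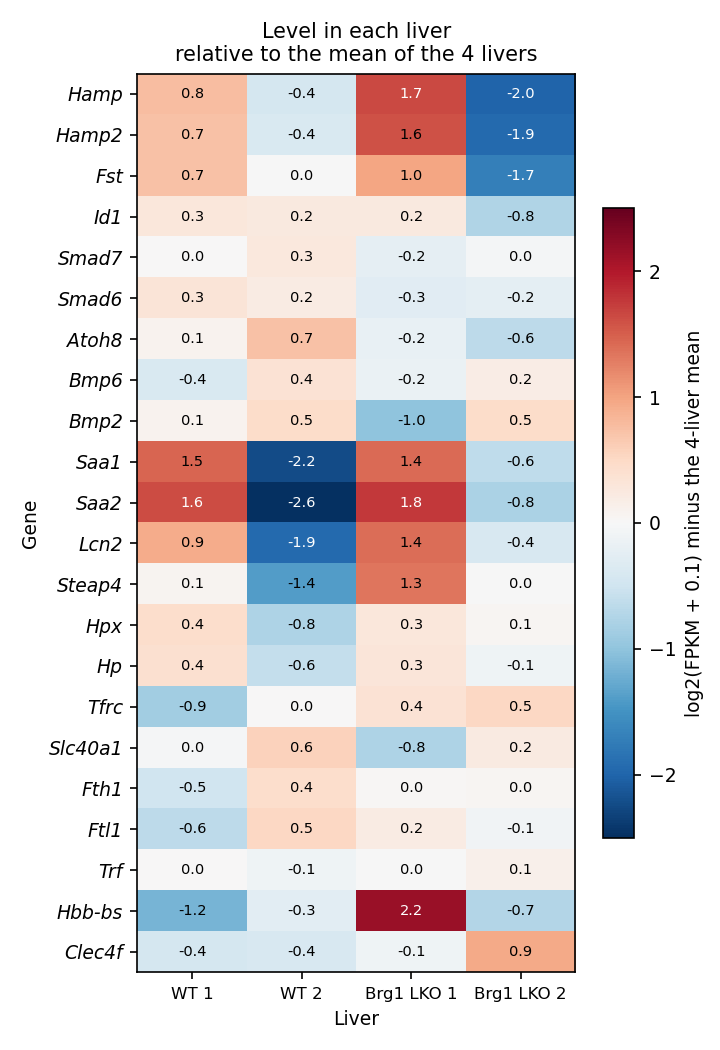
Each row is a gene and each column a liver; the number and color give log2(FPKM + 0.1) minus the mean of that gene over the 4 livers, red above and blue below it. *Hamp*, *Hamp2* and *Fst* are highest in LKO 1 and lowest in LKO 2, *Saa1* and *Saa2* are lowest in WT 2, *Hbb-bs* stands out in LKO 1 and the Kupffer marker *Clec4f* in LKO 2.

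LKO 1 stood apart in haemoglobin RNA and LKO 2 in Kupffer marker RNA, and these values are set beside the spread of *Hamp* as description. The 6 tested erythroid markers, out of 10 listed, summed to 21.9, 40.6, 181 and 27.0 FPKM in WT 1, WT 2, LKO 1 and LKO 2. The 4 globin genes carried this sum, while *Alas2*, the haem synthesis gene of red cells, had 5.03, 7.43, 7.79 and 3.96 FPKM. *Klf1*, a transcription factor gene of red cell precursors, had its lowest value in LKO 1 (0.0584 FPKM). It rests on only 8, 13, 7 and 20 reads in WT 1, WT 2, LKO 1 and LKO 2. *Hbb-bs* was the only one called, with overlapping groups, where 0.98% of all genes tested were called. *Slc4a1* and *Tspo2*, which mark red cells and their precursors, were below the filter. LKO 1 thus had the most haemoglobin RNA and the most *Hamp*, and LKO 2 the most Kupffer marker RNA and the least *Hamp*. The hepatocyte markers, whose cells make hepcidin, had a median log2 fold change of 0.08 with 0 of 11 called, the stellate cell markers 0.04 with 0 of 10 called, and the 6 tested neutrophil markers 0.28 with 0 called. Leaving out 1 liver moved these medians to 0.050 to 0.26, −0.073 to 0.11 and −0.11 to 0.62. The part of red cells and Kupffer cells in the level of *Hamp* was not tested.

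**Figure D4:**
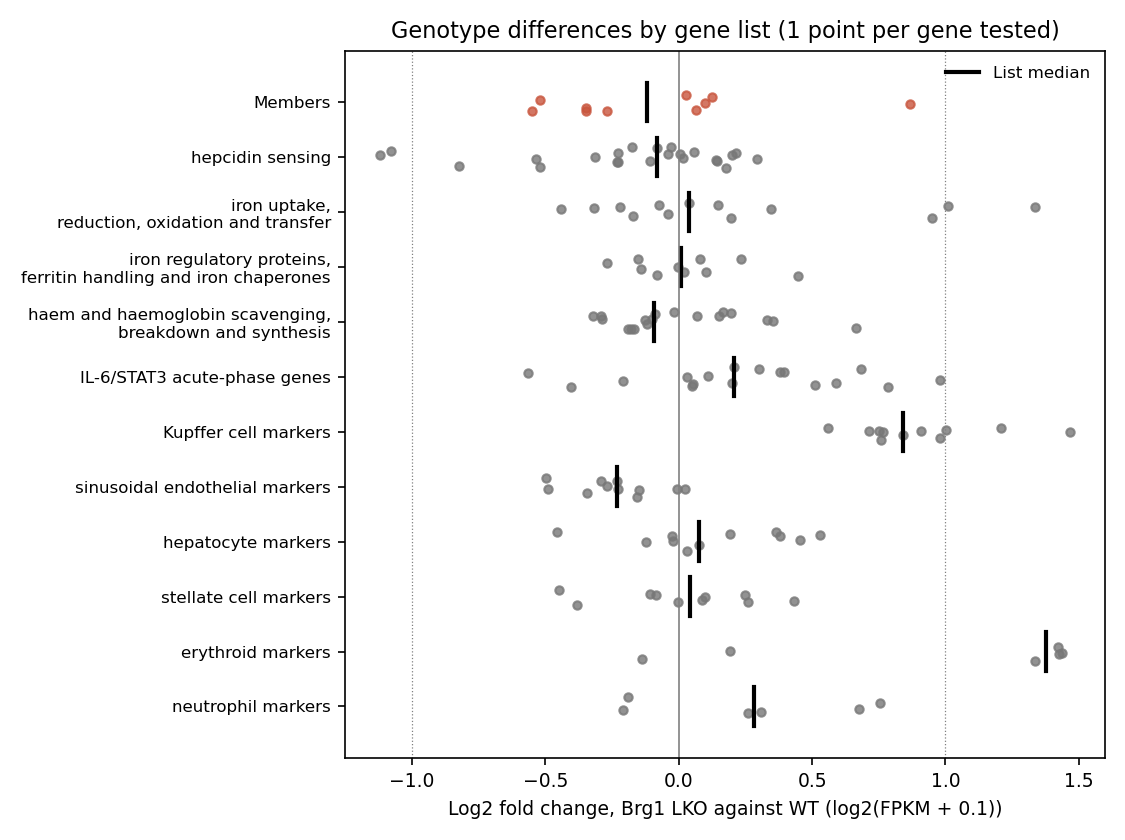
The log2 fold change of every tested gene of each list, Brg1 LKO against WT on the log2(FPKM + 0.1) scale, with 1 point per gene and a bar at the list median; dotted lines mark a 2-fold change. The 10 members (red) center on −0.12 with *Tfrc* alone at 0.87, the 11 Kupffer markers all lie above 0 around 0.84 (0.25 without LKO 2), and the hepcidin sensing genes center on −0.08 with *Bmp7* and *Smad9* past the left line.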

How the data were processed

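Total liver RNA of 4 mice was sequenced. According to the methods, the authors used Trimmomatic, HISAT2 (to GRCm38) and Cufflinks to make FPKM from stranded TruSeq libraries; the submitters' processing notes instead list HISAT2 2.0.4 with StringTie 2.1.4, and the labels name BGIseq libraries. The authors deposited FPKM, 1 value per liver for each entry (a gene symbol with 1 transcript identifier), with no stated normalization between libraries; whether a value covers the gene or that transcript is not given in the sources used here. On this scale an abundant gene that changes shifts the others. The read counts tested in the study were not used here.

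Of 22103 entries, 5250 were at 0 in all livers, 27 symbols turned into dates were restored, 50 shared a symbol, and 98.3% of transcripts were found in GENCODE M21. Low values on transcripts of at least 2000 bases gave the value of 1 read; 88.4% to 89.5% of values up to 20 reads lay within 0.1 of a whole read. Genes that averaged 0.1 FPKM or more were tested with limma 3.58.1 (eBayes with trend) in R 4.3.3 on log2(FPKM + 0.1), after a check on simulated data. Other steps used Python 3.11.15. A p-value covers the spread between these mice only.

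The members and gene lists were chosen with earlier results of these data known. Named genes are the members, *Smarca4*, per pathway list those with a p under 0.05, the 2 most abundant and the 2 with the largest change, the 2 most abundant of each marker list, and the 5 most like *Hamp*. *Bmp2*, *Smad6*, *Alas1*, *Vsig4*, *Cd5l*, *Cd68*, *Apcs*, *Crp*, *Alas2*, *Klf1*, *Slc4a1* and *Tspo2* were chosen after their values were seen, and some results of listed genes are not reported here. Of the listed genes, 5 stood under older symbols (*Hfe2*, *Fam132b*, *Emr1*, *Mfsd7b* and *Mfsd7c*). As 12 alternatives, each of the 4 livers was left out, the pseudocount was set to 1 or 0.01, the filter was removed or raised to 1 FPKM, values were rescaled by median ratios or by quantiles, the trend was dropped from eBayes, and the replicate number was added as a block.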

Additional observations from a re-analysis of the deposited data

How the results depend on the processing

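The 121 genes past the threshold became 18 with a pseudocount of 1 (17 shared), 80 with no filter and 68 with the filter raised to 1 FPKM, where 2 genes had an adjusted p under 0.05 in limma; leaving out 1 liver gave 73 to 557 such genes and 0 to 271 with an adjusted p under 0.05. With 1 liver left out, 0 to 3 members passed the threshold (*Hamp*, *Hamp2* and *Id1* without LKO 1, *Hamp*, *Hamp2* and *Slc40a1* without LKO 2, *Tfrc* without WT 2) and 0 to 4 had a p under 0.05, which 0 members had with no filter. The members' median, −0.12, was 0.064 with the filter at 1 FPKM and −0.37 to 0.044 with 1 liver left out. The median of all genes then moved as well, from −0.17 to 0.12. Log2 fold changes that changed sign when 1 liver was left out ran from −2.17 to 1.48 for *Hamp*, −2.12 to 1.43 for *Hamp2*, −0.34 to 0.40 for *Bmp6*, −0.41 to 0.54 for *Fth1*, −0.46 to 0.71 for *Ftl1*, −0.42 to 2.44 for *Lcn2*, −0.17 to 0.88 for *Hmox1*, −1.06 to 2.63 for *Saa1* and −1.15 to 3.11 for *Saa2*. A pseudocount of 1 turned *Bmp6* to −0.00080, and quantile normalization turned *Fth1* to −0.16 and *Ftl1* to −0.11; the cause was not tested. *Tfrc*, *Trf* and *Slc40a1* kept their sign under all 12 alternatives, and *Id1* and *Smad7* under the 11 that could be run, since the filter at 1 FPKM removes both.

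The labels give WT 1 and LKO 1 the same replicate number and do not say whether they share more. Their deviations from the group means correlated at 0.0307 over 12346 genes, a value over all genes that cannot show whether some genes varied together. With the replicate block, 108 genes passed the threshold (98 shared), 0 members did, and *Tfrc* kept an unadjusted p under 0.05 at the same log2 fold change, 0.87. An unadjusted p under 0.05 was then reached by 357 genes, against 247 without the block. *Lcn2* passed the threshold with the block (log2 fold change 1.01, limma unadjusted p = 0.030), which it did not without it. *Bmp6* rests on 21 to 54 reads per liver, which limits its precision.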

Other observations

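Haem handling, which supplies much of the iron that the liver recycles, was measured in 18 genes, of which 0 rose and 0 fell; the median log2 fold change was −0.09, which was 0.12 without LKO 1 and 0.10 without WT 2. *Hp* (haptoglobin) and *Hpx* (hemopexin), which clear free haemoglobin and haem from blood, were the most abundant, at 1705 to 3425 FPKM and 1148 to 2642 FPKM, and both were lowest in WT 2. *Cd163*, the macrophage receptor for haptoglobin bound to haemoglobin, had 1.06 FPKM in WT 1, 0.752 FPKM in WT 2, 1.01 FPKM in LKO 1 and 2.13 FPKM in LKO 2, with a log2 fold change of 0.66 (95% interval −0.18 to 1.51). *Hmox1*, the inducible haem oxygenase, had 2.51, 5.29, 4.64 and 4.74 FPKM in the same livers. *Alas1*, which begins haem synthesis in hepatocytes, had 122 FPKM in WT 1, 179 FPKM in WT 2, 267 FPKM in LKO 1 and 72.7 FPKM in LKO 2, so that its highest and lowest values were both in Brg1 LKO livers.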
